A study of Mus musculus with 19 samples.

Results

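Calpains are calcium-activated cysteine proteases that cut their substrates at few sites, and calpastatin is their natural protein inhibitor. The 9 genes described here were chosen by name from a list of calpains and calpastatin: the catalytic subunits Capn1, Capn2, Capn5, Capn7, Capn10, Capn11 and Capn15, the small regulatory subunit Capns1 and the inhibitor gene Cast. All 9 were among the 35842 genes of the count table, and all 9 were among the 18529 genes that passed the filter on low counts. Capn11 entered the list because of its pattern in DESeq2 fits of these same libraries, so its group values are given as a description without a test.

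Hippocampal RNA was sequenced from 19 female mice killed at 6 months of age, 1 library a mouse. There were 4 APP/PS1 A2A mice, 5 A2A mice, 5 APP/PS1 mice and 5 WT mice. APP/PS1 mice were heterozygous for APPswe/PS1dE9 on a C57Bl6/J background, A2A mice carried a mouse A2A receptor cDNA behind a Tet-responsive element (TRE-A2A), and APP/PS1 A2A mice carried both. Every mouse, WT and APP/PS1 controls included, had received an AAV vector with the tTA transactivator under the CBA promoter in CA1 of the dorsal hippocampus at 3 months, so a vector and an injection are common to all groups and the transgene is induced only in transduced cells. Tissue was the hippocampus of 1 hemisphere, in bulk, and fewer cells of a type cannot be told apart from less RNA per cell.

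Library totals ran between 21305902 and 53717373 counts, with a median of 35891080. App, which reads both the endogenous gene and the transgene, had 3282 to 4499 CPM (read counts scaled by library size) in APP/PS1 A2A mice and 3430 to 4473 CPM in APP/PS1 mice, against 1381 to 1746 CPM in A2A mice and 1467 to 1920 CPM in WT mice. The A2A transgene is an optimised cDNA, and Adora2a reads did not separate the carriers: 1.27 to 10.3 CPM in APP/PS1 A2A mice and 0.865 to 9.35 CPM in A2A mice, against 1.145 to 1.83 CPM in APP/PS1 mice and 1.09 to 1.54 CPM in WT mice. The summed level of 5 markers of hippocampal pyramidal and granule neurons lay between 755 and 1406 CPM in the 19 mice, while the sum of 8 choroid plexus markers ran between 216 and 14513 CPM.

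In neurons, the ubiquitous calpains encoded by Capn1 (micro-calpain) and Capn2 (m-calpain) each pair with the small subunit Capns1, whose penta-EF-hand domain binds calcium. They cut spectrin, glutamate receptor subunits and the p35 activator of Cdk5, and they are studied in the hippocampus for their parts in synaptic plasticity and in neurodegeneration. Activity is set after translation by calcium and calpastatin, which RNA levels do not measure. Capn11 encodes a catalytic subunit of the same classical architecture that is known in the mouse as a testis calpain.

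Promoter sequence was read for 8 of the 9 members, in 14 windows running from 250 bases before to 50 bases after a RefSeq transcription start in GRCm38.p6. The windows of the most and the least variable member (Capn11 and Capn7) and of the most abundant one (Capns1) are shown on the strand of the gene, 5′ to 3′, with every CG dinucleotide in capitals. They lie at chr17:45659260-45659559 (minus strand) for Capn11, at chr14:31336388-31336687 (plus strand) for Capn7 and at chr7:30195104-30195403 (minus strand) for Capns1.
Capn11: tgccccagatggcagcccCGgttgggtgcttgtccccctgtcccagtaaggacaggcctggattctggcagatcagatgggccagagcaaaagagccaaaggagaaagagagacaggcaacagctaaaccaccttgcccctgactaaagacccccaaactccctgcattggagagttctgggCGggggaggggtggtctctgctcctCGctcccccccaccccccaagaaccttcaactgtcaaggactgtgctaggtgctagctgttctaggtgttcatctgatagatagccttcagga
Capn7: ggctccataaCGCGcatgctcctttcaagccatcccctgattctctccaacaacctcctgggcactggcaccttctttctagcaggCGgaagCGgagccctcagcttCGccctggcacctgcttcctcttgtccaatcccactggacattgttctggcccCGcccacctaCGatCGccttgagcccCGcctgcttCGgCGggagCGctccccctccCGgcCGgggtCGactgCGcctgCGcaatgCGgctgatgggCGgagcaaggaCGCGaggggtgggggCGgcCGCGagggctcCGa
Capns1: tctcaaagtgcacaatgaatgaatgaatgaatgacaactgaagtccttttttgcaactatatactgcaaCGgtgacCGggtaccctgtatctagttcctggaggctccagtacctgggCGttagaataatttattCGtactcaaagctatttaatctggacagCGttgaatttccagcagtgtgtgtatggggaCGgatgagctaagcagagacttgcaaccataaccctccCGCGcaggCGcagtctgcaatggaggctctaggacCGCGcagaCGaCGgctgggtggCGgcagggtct
The Capn11 window held 3 CG dinucleotides at 57.3% G+C, and 23.3% of all 32851 windows held fewer. The Capn7 window held 25 at 67% G+C, with 81.6% of windows below it, and the Capns1 window held 14 at 50% G+C, with 63.7% below it. The median over all windows was 7. No member window held the cyclic AMP response element TGACGTCA, the TATA box TATAAA or the E-box CACGTG, searched on both strands and sharing no match with each other; 1.79%, 13.6% and 7.15% of all windows held them. These are counts of letters, and no binding was measured.

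Capn11 reads were carried unevenly, and mainly by some mice of the A2A and APP/PS1 groups. The APP/PS1 A2A mice had 0.705, 0.565, 0.635 and 0.861 CPM, from 26, 30, 28 and 40 reads. The A2A mice had 4.01, 0.732, 7.38, 2.24 and 1.76 CPM, from 88, 31, 263, 72 and 59 reads. The APP/PS1 mice had 2.16, 4.03, 5.98, 0.826 and 1.06 CPM, from 76, 121, 193, 31 and 50 reads, and the WT mice had 0.725, 0.349, 0.342, 0.334 and 0.739 CPM, from 24, 14, 10, 10 and 29 reads. Thus 4 of 5 A2A mice and 4 of 5 APP/PS1 mice lay over 1 CPM, against 0 of 4 APP/PS1 A2A mice and 0 of 5 WT mice, while A2A replicate 2 and APP/PS1 replicate 4 were at the levels of APP/PS1 A2A mice.

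**Figure D1:**
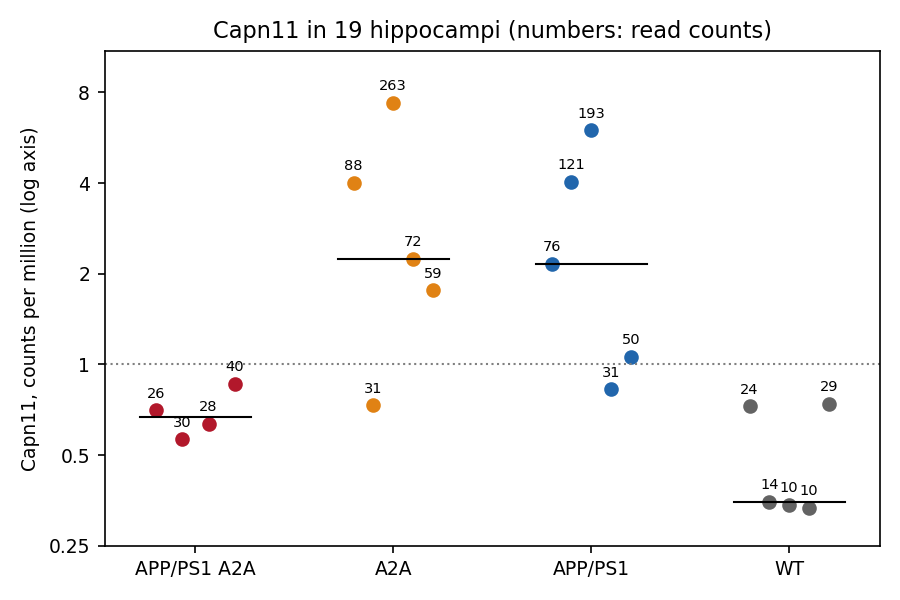
Capn11 in CPM (log axis) in each of the 19 hippocampi, by genotype; the number at each point is its read count, horizontal bars are group medians and the dotted line marks 1 CPM. The 4 APP/PS1 A2A mice and the 5 WT mice lie under the line, and 4 of 5 mice in each of the A2A and APP/PS1 groups lie over it, spread over as much as 10.1-fold within a group.

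Of the 1195 Capn11 reads in the series, 577 came from the 3 mice of highest CPM, A2A replicate 3 and APP/PS1 replicates 3 and 2, a share of 48.3% (exact binomial 95% interval 45.4% to 51.2%). The highest mouse, A2A replicate 3, had 263 reads (exact Poisson 95% interval 232 to 297) and 22.0% of all Capn11 reads, and the lowest 2 WT mice had 10 reads each (4.80 to 18.4). These intervals cover counting error only. By group, 10.4% of the reads came from APP/PS1 A2A mice, 42.9% from A2A mice, 39.4% from APP/PS1 mice and 7.28% from WT mice.

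Mean Capn11 levels were 0.691 ± 0.127 CPM in APP/PS1 A2A mice (SD, n = 4), 3.23 ± 2.61 CPM in A2A mice, 2.81 ± 2.18 CPM in APP/PS1 mice and 0.498 ± 0.214 CPM in WT mice (SD, n = 5 each). In the edgeR fit the log2 fold change was 2.67 for A2A versus WT and 2.47 for APP/PS1 versus WT. It was -2.21 for APP/PS1 A2A versus A2A and -2.01 for APP/PS1 A2A versus APP/PS1. The interaction term was -4.68, while the averages over both backgrounds were 0.13 for APP/PS1 and 0.33 for A2A. The single transgenic groups thus stood above both WT and the double transgenic group. The gene was chosen from A2A versus WT, the interaction and the authors' list for APP/PS1 A2A versus A2A. All the comparisons share mice with these, so no p-value is given for any of them.

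Only the APP/PS1 and WT groups did not overlap in Capn11, the lowest APP/PS1 mouse (0.826 CPM) being above the highest WT mouse (0.739 CPM). In that comparison 0.421% of all genes tested had groups that did not overlap, in either direction. The other 8 members overlapped in all 4 pairwise comparisons, where the share of all genes without overlap was 1.12% for A2A versus WT, 2.82% for APP/PS1 A2A versus A2A and 0.712% for APP/PS1 A2A versus APP/PS1. Without A2A replicate 3 the Capn11 log2 fold change was 2.10 for A2A versus WT and -1.64 for APP/PS1 A2A versus A2A, and without APP/PS1 replicate 3 it was 1.99 for APP/PS1 versus WT and -1.53 for APP/PS1 A2A versus APP/PS1. No single mouse turned any of these 4 directions round. The gene was chosen for its pattern in these same libraries, so this is a description and gives the directions no support. The averages over both backgrounds were less steady: that for APP/PS1 ran between -0.11 (without APP/PS1 replicate 3) and 0.42 (without A2A replicate 3), and that for A2A between 0.04 (without A2A replicate 3) and 0.57 (without APP/PS1 replicate 3).

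The spread of Capn11 between mice of 1 group was also the widest of the members. Its within-group SD was 0.93 on the log2 CPM scale, and 96.5% of all tested genes, or 92.4% of the 1355 genes within 0.5 log2 units of its level, had a smaller one. The log2 CPM had an SD of 0.24 in APP/PS1 A2A mice (n = 4), 1.22 in A2A mice, 1.19 in APP/PS1 mice and 0.54 in WT mice (n = 5 each). The groups with the higher levels were also the ones that varied most.

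Capn11 lies at chr17:45630204-45659325 (mm10, minus strand), and no other gene of the table overlaps it. Its nearest neighbour on the side of higher coordinates is Tmem63b, on the same strand 846 bases away, which encodes an osmosensitive cation channel and had 118 to 148 CPM in the 19 mice, 1.25-fold from the lowest to the highest. The nearest on the other side is the snRNA gene Gm25008, at 9445 bases, with no more than 0.0302 CPM in any mouse. Of the 14 genes within 100 kb, 9 were tested, and their highest mouse was 1.25-fold to 3.999-fold above their lowest, against 22.1-fold for Capn11. None of the 9 was called in any comparison, and none had an unadjusted p under 0.05 (edgeR), with log2 fold changes between -0.48 and 0.17.

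Of 6 listed markers of testis germ cells, 3 were in the table; Tnp2 and Acrv1 were at 0 in most mice, and Ddx4 carried almost the whole sum, which was 3.75 to 6.78 CPM in APP/PS1 A2A mice, 3.91 to 5.02 CPM in A2A mice, 3.54 to 4.57 CPM in APP/PS1 mice and 3.59 to 5.31 CPM in WT mice. Over the 19 mice the correlation of Capn11 with 13 marker sums ran between -0.43 (hippocampal neurons) and 0.28 (endothelium), given as a description.

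Per kilobase of exon, the members differed widely, and the small subunit had the highest level. Mean levels over the 19 mice were 56.1 RPKM for Capns1, 13.6 for Capn5, 12.6 for Capn7, 11.8 for Capn2, 9.85 for Capn15, 7.56 for Capn1, 6.65 for Capn10, 1.09 for Cast and 0.689 for Capn11 (CPM divided by the exon union length in GENCODE M21). The start and end of Capn1 in the count table differ from those in GENCODE M21, so its RPKM, its place in this order and the per-kilobase ratios that use it hold only as far as the M21 length fits the gene model that was counted. An exon union spans the bases of all annotated transcripts. Cast had the longest of the 9 members, 11470 bases over 13 transcripts, against 6345 bases for Capn2 and 3344 for Capn1. Its RPKM is therefore too low if mainly shorter transcripts are expressed. In CPM the means over the 19 mice were 12.5 for Cast, 25.3 for Capn1, 74.7 for Capn2 and 1.87 for Capn11. Capns1 lay above Capn5 and Capn10 above Cast in all 19 mice without overlap of their ranges. The ranges of every other neighbouring pair overlapped in RPKM, most closely for Capn5 and Capn7, where Capn5 was the higher in 12 of 19 mice. By that measure Cast lay above Capn11 in 14 of 19. In CPM the ranges of Cast and Capn11 did not overlap, the lowest Cast mouse having 8.77 CPM and the highest Capn11 mouse 7.38 CPM.

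None of the 8 members other than Capn11 was called in any of the 7 comparisons (edgeR), where a call needed a log2 fold change beyond 0.32 in either direction together with a Benjamini-Hochberg value below 0.05. The share of all genes called was 0.054% for APP/PS1 versus WT, 0% for A2A versus WT, 0.0648% for APP/PS1 A2A versus A2A, 0% for APP/PS1 A2A versus APP/PS1, 0.189% for the APP/PS1 main effect, 0% for the A2A main effect and 0% for the interaction. DESeq2 and limma-voom also called 0 of the 8. Of 35640 genes, DESeq2 called 21 for APP/PS1 versus WT, 162 for APP/PS1 A2A versus A2A and 82 for the APP/PS1 main effect. It called no more than 1 in each of the other comparisons. Of 18529 genes, limma-voom called 8, 13 and 30 in the same 3 comparisons and 0 in the others. At an unadjusted p under 0.05 edgeR found 2 of the 8, Cast and Capns1, in the A2A main effect, where 2.66% of all genes passed that level, and 0 of the 8 in the other 6 comparisons. There the shares of all genes were 2.26% for APP/PS1 versus WT, 3.44% for A2A versus WT, 7.7% for APP/PS1 A2A versus A2A, 2.87% for APP/PS1 A2A versus APP/PS1, 6.24% for the APP/PS1 main effect and 3.8% for the interaction.

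**Figure D2:**
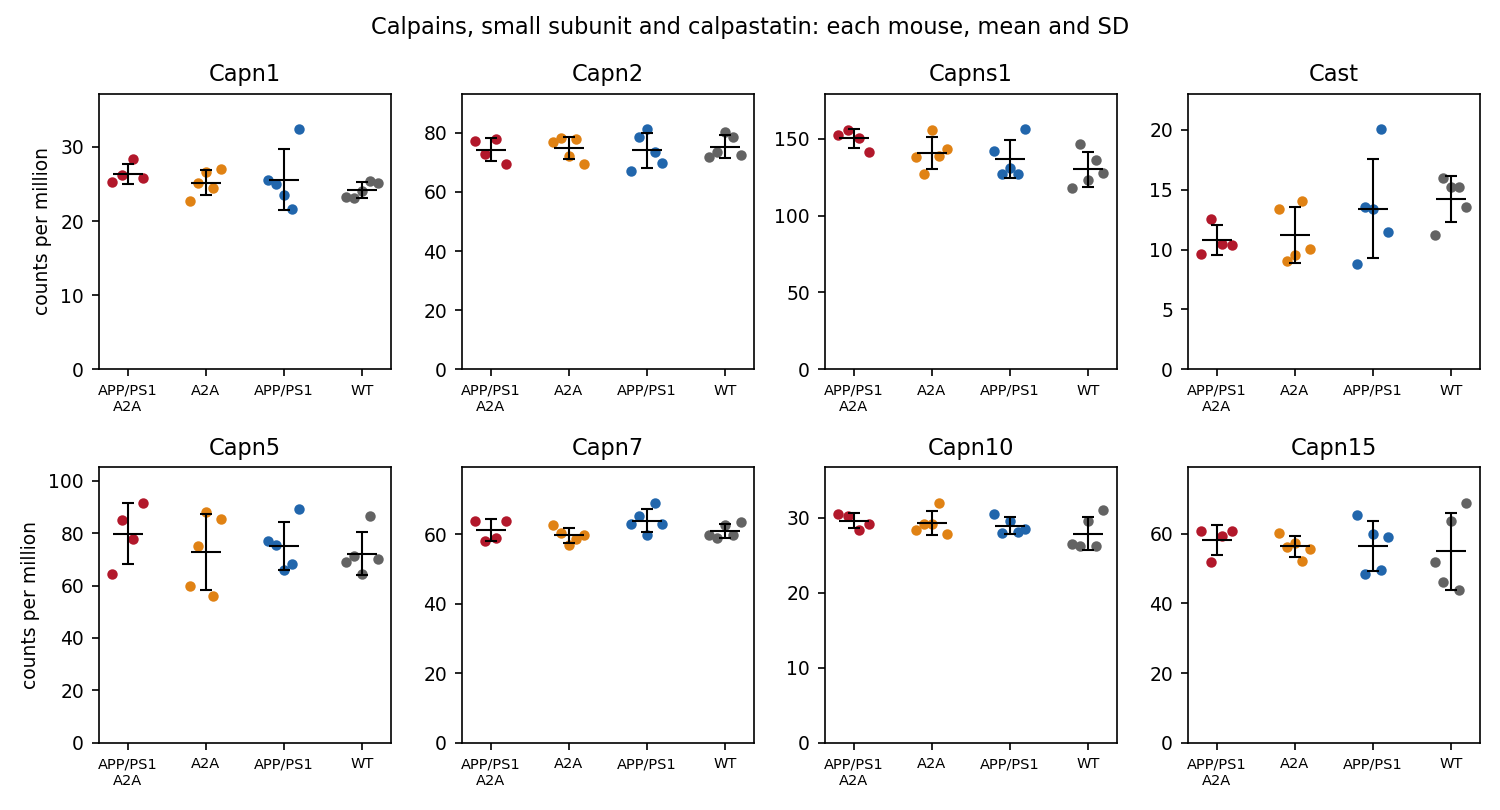
Levels in CPM of the 8 members other than Capn11 in each mouse, by genotype, on axes that start at 0; horizontal marks and bars are the group mean and SD. The groups overlap for every member, and Cast in APP/PS1 mice, 13.4 ± 4.16 CPM, has the widest spread relative to its mean.

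Among the classical subunits, Capn1 encodes the catalytic chain that needs micromolar calcium in the test tube. Capn1 had 25.3, 26.2, 28.3 and 25.8 CPM in APP/PS1 A2A mice, 22.7, 25.2, 26.6, 24.5 and 27.0 CPM in A2A mice, 25.5, 24.97, 23.5, 21.7 and 32.4 CPM in APP/PS1 mice, and 23.3, 23.1, 24.1, 25.4 and 25.2 CPM in WT mice. Both the highest and the lowest of all 19 mice were APP/PS1 mice. Its APP/PS1 main effect was 0.07 on the log2 scale (95% interval -0.06 to 0.20, edgeR adjusted p = 0.942) and its A2A main effect 0.05 (-0.08 to 0.18, adjusted p = 0.999).

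Capn2, the catalytic chain that needs millimolar calcium in the test tube, varied less. Its range was 69.3 to 77.8 CPM in APP/PS1 A2A mice, 69.6 to 78.1 CPM in A2A mice, 67.1 to 81.1 CPM in APP/PS1 mice and 71.9 to 80.3 CPM in WT mice. The APP/PS1 main effect of -0.02 (95% interval -0.11 to 0.07) and the A2A main effect of -0.0011 (-0.09 to 0.09) both had intervals that spanned 0. Per kilobase, Capn2 over Capn1 stood at 1.49 ± 0.087 in APP/PS1 A2A mice (SD, n = 4), 1.58 ± 0.176 in A2A mice, 1.56 ± 0.293 in APP/PS1 mice and 1.64 ± 0.086 in WT mice (SD, n = 5 each).

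Capns1, the small subunit that both chains need for stability, was at 152.6, 155.9, 150.8 and 141.7 CPM in APP/PS1 A2A mice, 138.5, 127.0, 156.0, 138.6 and 143.2 CPM in A2A mice, 142.2, 127.1, 131.3, 127.1 and 156.1 CPM in APP/PS1 mice, and 117.8, 146.8, 123.3, 136.2 and 127.5 CPM in WT mice. Carriers of A2A averaged 145 ± 9.71 CPM (SD, n = 9), against 134 ± 11.8 CPM in mice without it (SD, n = 10), and their ranges overlapped. The A2A main effect was 0.12 ± 0.05 (SE, 95% interval 0.01 to 0.23), with an unadjusted p of 0.0289 and an adjusted p of 0.999 (edgeR), and it did not pass. The APP/PS1 main effect was 0.08 (-0.03 to 0.19, adjusted p = 0.908). Per kilobase, Capns1 over the sum of Capn1 and Capn2 was 3.10 ± 0.133 in APP/PS1 A2A mice (SD, n = 4), 2.94 ± 0.248 in A2A mice, 2.86 ± 0.241 in APP/PS1 mice and 2.75 ± 0.269 in WT mice (SD, n = 5 each).

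Cast, the inhibitor that binds the calpain heterodimers in the presence of calcium, had 9.65, 12.6, 10.5 and 10.4 CPM in APP/PS1 A2A mice, 13.4, 9.02, 9.54, 14.1 and 10.0 CPM in A2A mice, 8.77, 13.5, 13.4, 20.03 and 11.5 CPM in APP/PS1 mice, and 11.2, 15.996, 15.2, 15.3 and 13.6 CPM in WT mice. WT mice lay mostly above A2A carriers, but the groups overlapped, and both the lowest and the highest level were seen in APP/PS1 mice. A2A carriers averaged 11.01 ± 1.83 CPM (SD, n = 9), against 13.8 ± 3.09 CPM in mice without A2A (SD, n = 10). The A2A main effect was -0.33 ± 0.13 (SE, 95% interval -0.61 to -0.06), with an unadjusted p of 0.0198 and an adjusted p of 0.999 (edgeR), so it did not pass over all genes.

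The Cast difference was of similar size on both backgrounds: -0.35 (95% interval -0.73 to 0.03, adjusted p = 0.964) for A2A versus WT and -0.32 (-0.71 to 0.08, adjusted p = 0.9999) for APP/PS1 A2A versus APP/PS1, with an interaction of 0.03 (-0.51 to 0.58). The APP/PS1 main effect was -0.07 (-0.34 to 0.20, adjusted p = 0.986). APP/PS1 replicate 4, the mouse with 20.03 CPM, weighed on the comparison of APP/PS1 A2A with APP/PS1, which was -0.13 without it. Per kilobase, Cast stood at 0.0480 ± 0.0064 of the sum of Capn1 and Capn2 in APP/PS1 A2A mice (SD, n = 4), 0.0506 ± 0.0108 in A2A mice, 0.0610 ± 0.0212 in APP/PS1 mice and 0.0649 ± 0.0080 in WT mice (SD, n = 5 each). These ratios rest on the long exon union of Cast, 11470 bases, and are too low if mainly shorter Cast transcripts are expressed.

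**Figure D3:**
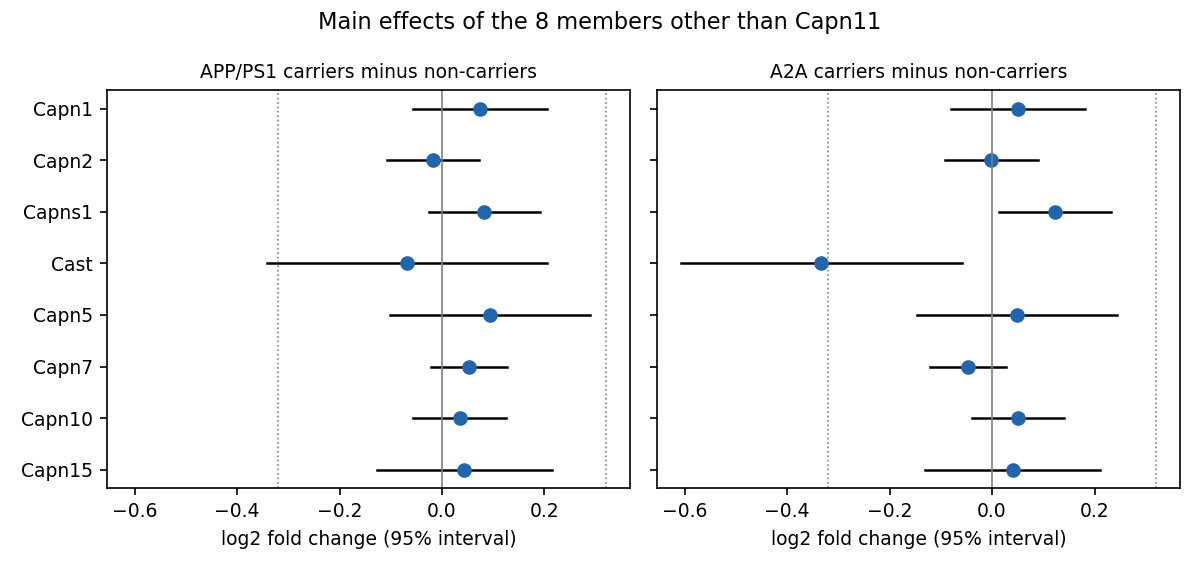
Log2 fold changes of the 8 members other than Capn11 averaged over both backgrounds, for APP/PS1 carriers minus non-carriers (left) and A2A carriers minus non-carriers (right), with 95% intervals from the edgeR fit; dotted lines mark 0.32 either way. All intervals on the left span 0, and on the right the Cast interval (-0.61 to -0.06) and the Capns1 interval (0.01 to 0.23) do not, neither passing adjustment over all genes.

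Cast levels went with the summed choroid plexus markers of the same mice. These had medians of 2548 CPM in APP/PS1 A2A mice (216 to 5253), 1129 CPM in A2A mice (298 to 9575), 3438 CPM in APP/PS1 mice (426 to 14513) and 7999 CPM in WT mice (417 to 11663), all 8 markers being detected. Over the 19 mice Pearson's r between log2 Cast and the log2 sum was 0.81 (permutation p = 5.0e-05, 0.00526 adjusted over 117 relations of members and marker lists) and Spearman's rho 0.83 (permutation p = 5.0e-05, adjusted 0.00292). The r was 0.77 without the 2 mice farthest from the median of the sum and 0.81 within groups. With the log2 sum as a term in the edgeR fit, a setting chosen after the data were seen, the A2A main effect of Cast was -0.19 (edgeR unadjusted p = 0.0484). It did not pass, the smallest edgeR adjusted p of the 8 members for that effect being 0.999. The sum itself had lower medians in both groups with A2A than in both groups without it, with overlapping ranges. That fit therefore cannot tell choroid plexus tissue apart from genotype. The part of this tissue in the Cast difference was not tested.

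**Figure D4:**
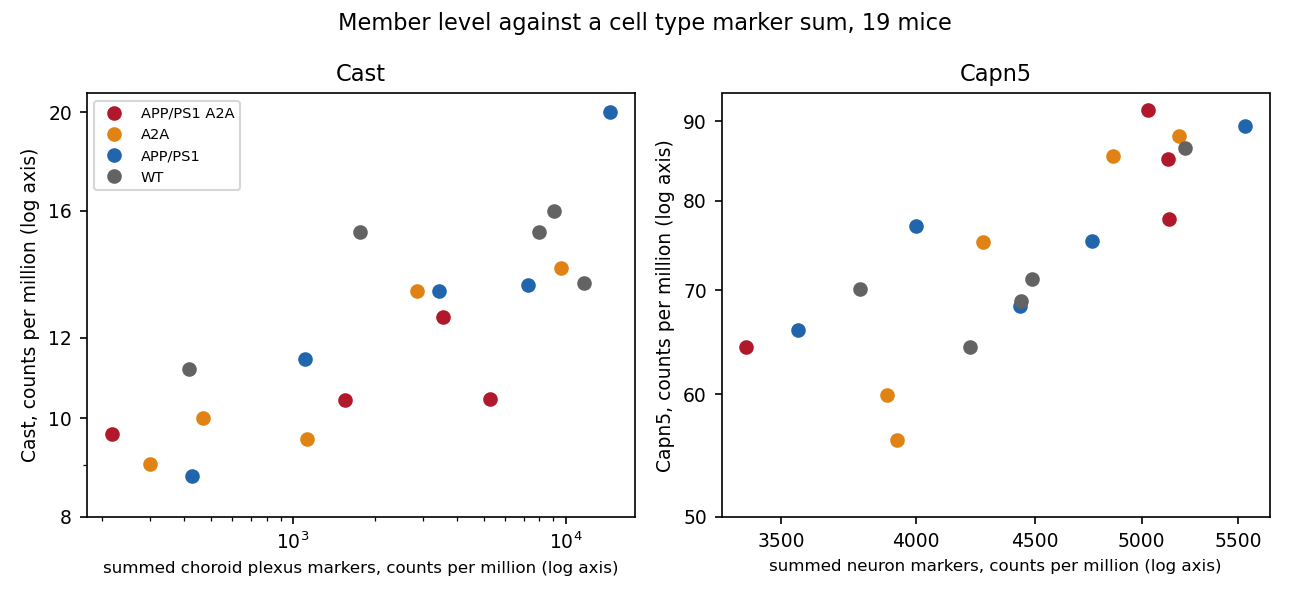
Cast against the summed choroid plexus markers (left) and Capn5 against the summed neuron markers (right), both in CPM on log axes, 1 point a mouse, coloured by genotype. The measures of each panel go together across the 4 groups, with r = 0.81 in each panel.

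The non-classical calpains lack the calcium-binding penta-EF-hand domain and do not pair with Capns1. Capn5, a calpain expressed in the nervous system whose human gene is mutated in a hereditary vitreoretinopathy, had 64.4 to 91.5 CPM in APP/PS1 A2A mice, 56.0 to 88.0 CPM in A2A mice, 66.0 to 89.4 CPM in APP/PS1 mice and 64.4 to 86.5 CPM in WT mice. Its APP/PS1 main effect was 0.09 (95% interval -0.10 to 0.29) and its A2A main effect 0.05 (-0.15 to 0.24). Spread within groups was wide, the SD of log2 CPM exceeding that of 84.2% of the 2329 genes of like level.

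That spread ran with neuronal markers. Capn5 correlated with the sum of 4 neuron markers at r = 0.81 (permutation p = 9.0e-05, adjusted 0.00526) and rho = 0.85 (permutation p = 4.0e-05, adjusted 0.00292), with r = 0.79 without the 2 farthest mice and 0.82 within groups. The neuron sum was 3381 to 5139 CPM in APP/PS1 A2A mice, 3885 to 5185 CPM in A2A mice, 3560 to 5537 CPM in APP/PS1 mice and 3785 to 5218 CPM in WT mice. Capn5 also correlated with the hippocampal neuron sum (r = 0.73, permutation p = 0.000420, adjusted 0.0123, rho = 0.68, permutation p = 0.00162, r = 0.70 without the 2 farthest mice) and negatively with the sum of 4 striatal markers (r = -0.68, permutation p = 0.00170, adjusted 0.0380, rho = -0.65, permutation p = 0.00333, adjusted 0.0529, r = -0.64 without the 2 farthest mice).

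Capn7, whose N-terminal domains bind the ESCRT-III machinery of membrane remodelling, was the steadiest member. It had 58.1 to 63.9 CPM in APP/PS1 A2A mice, 57.0 to 62.7 CPM in A2A mice, 59.7 to 69.0 CPM in APP/PS1 mice and 58.9 to 63.5 CPM in WT mice. Only 0.734% of all tested genes, and 2.03% of the 2507 genes of like level, had a smaller within-group SD than its 0.06 log2 units. Main effects were 0.05 for APP/PS1 (95% interval -0.02 to 0.13) and -0.05 for A2A (-0.12 to 0.03).

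Capn10, whose human gene has been linked to type 2 diabetes, was nearly as steady, at 28.4 to 30.5 CPM in APP/PS1 A2A mice, 27.8 to 31.96 CPM in A2A mice, 28.01 to 30.5 CPM in APP/PS1 mice and 26.2 to 31.0 CPM in WT mice. Main effects were 0.03 for APP/PS1 (95% interval -0.06 to 0.12) and 0.05 for A2A (-0.04 to 0.14). Capn15, the mammalian relative of the small optic lobes gene of Drosophila, spread more, at 52.0 to 60.8 CPM in APP/PS1 A2A mice, 52.3 to 60.3 CPM in A2A mice, 48.4 to 65.3 CPM in APP/PS1 mice and 43.8 to 68.8 CPM in WT mice. Its WT group alone covered the range of every other group, and main effects were 0.04 for APP/PS1 (-0.13 to 0.21) and 0.04 for A2A (-0.13 to 0.21).

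Taking the 8 members as a list, 6 had a positive APP/PS1 main effect and 5 a positive A2A main effect. The median log2 fold change was 0.05 for APP/PS1, beside -0.0013 over all genes, where 49.5% were positive, and 0.04 for A2A, beside -0.0033 over all genes, where 48.6% were positive. The interaction had a median of 0.01 in the list, beside -0.00011 over all genes. These are descriptions of a list chosen with results of these data known.

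The members did not move as 1 block between mice. Of the 28 pairs without Capn11, 13 had a positive Pearson's r over the 19 mice, and 3 passed an adjusted p under 0.05. These were Capn1 with Capn5 (r = 0.65, permutation p = 0.00179, rho = 0.77, permutation p = 0.000190), Capn1 with Capns1 (r = 0.61, permutation p = 0.00412, rho = 0.67, permutation p = 0.00230) and Capn10 with Capn15 (r = 0.63, permutation p = 0.00359, rho = 0.68, permutation p = 0.00163), each with an adjusted p of 0.0385 for r. The values of r without the 2 farthest mice were 0.66, 0.52 and 0.40, and within groups 0.63, 0.55 and 0.62, in the same order. Capn11 had r between -0.23 (Cast) and 0.26 (Capn10) with the others.

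Besides Cast with choroid plexus and Capn5 with neurons, few marker sums went with members. Cast also correlated with the striatal sum (r = 0.75, permutation p = 0.000270, adjusted 0.0105, rho = 0.77, permutation p = 0.000220, r = 0.68 without the 2 farthest mice). Against the sum of hippocampal pyramidal and granule neuron markers, Capn1 had r = 0.66 (permutation p = 0.00195, adjusted 0.0380, rho = 0.73, permutation p = 0.000710, r = 0.51 without the 2 farthest mice) and Capn2 had r = -0.64 (permutation p = 0.00306, adjusted 0.0448, rho = -0.58, permutation p = 0.0112, adjusted 0.131, r = -0.51 without the 2 farthest mice). Capn15 went with 4 endothelial markers (r = 0.65, permutation p = 0.00269, adjusted 0.0448, rho = 0.70, permutation p = 0.00125, r = 0.63 without the 2 farthest mice). All values of 1 mouse share its library and scaling, and what moves the levels was not tested.

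**Figure D5:**
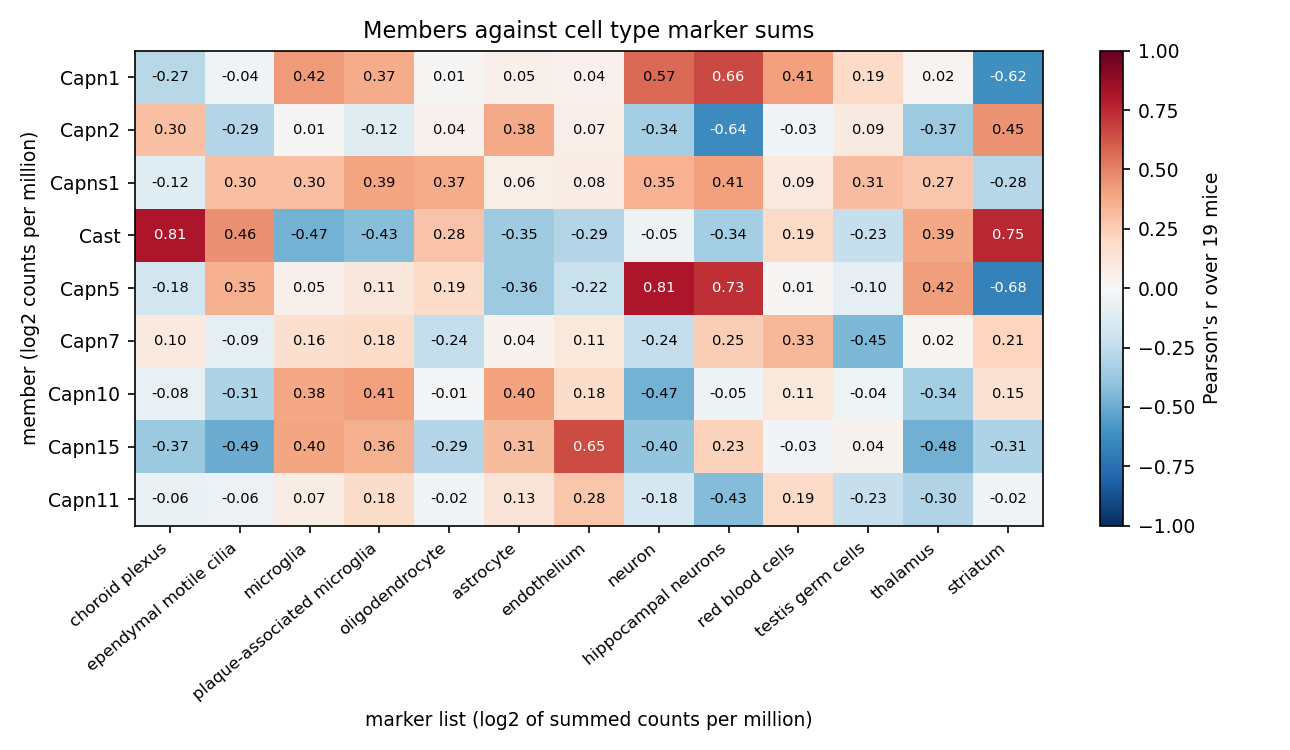
Pearson's r over the 19 mice between log2 CPM of each member (rows) and the log2 summed CPM of each marker list (columns). Cast with choroid plexus and Capn5 with neuron stand out at 0.81, and the Capn11 row stays between -0.43 and 0.28.

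The genes whose levels followed each member most closely differed by member (highest Pearson's r of log2 CPM over the 19 mice among all genes tested, as a description). Capn1 was nearest to Svop (0.88), a synaptic vesicle protein, Syt3 (0.87), a synaptotagmin, and Kcnab2 (0.87), a potassium channel subunit. Capn5 was nearest to Galnt16 (0.94), Ak5 (0.91), a brain adenylate kinase, and Dnm1 (0.91), the dynamin of synaptic vesicle endocytosis. Cast was nearest to Brip1os (0.90), Wfikkn2 (0.89) and Gulp1 (0.89).

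Capn15 was nearest to Mcf2l (0.93), Brat1 (0.92) and Tmem214 (0.92), Capn10 to 9130221H12Rik (0.88), Mepce (0.84) and Rnf166 (0.83), and Capns1 to Rnf187 (0.89), Aprt (0.85) and Blnk (0.83). Capn7 was nearest to the poly(A) polymerase gene Papola (0.82), Top1 (0.78), a DNA topoisomerase, and Zfp976 (0.75), and Capn2 to Gm40493 (0.79), Ebp (0.78) and Rab13 (0.77). Capn11 had the weakest company at the level of mice: B230312C02Rik (0.78), Rab4a (0.75) and March9 (0.72), whose r within groups was 0.62, 0.48 and 0.42. Gm40493, at 0 to 0.502 CPM in the 19 mice, and B230312C02Rik, at 0.160 to 0.638 CPM, were near the detection limit.

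Of 9 further genes of the calpain family that were listed, 8 were in the table and 6 were tested, and none was called in any of the 7 comparisons; 0 of the 6 had an unadjusted p under 0.05 (edgeR). Capn3, the skeletal muscle calpain, was the most abundant, at 11.004 to 17.8 CPM in APP/PS1 A2A mice, 11.9 to 23.1 CPM in A2A mice, 9.32 to 24.7 CPM in APP/PS1 mice and 9.31 to 21.0 CPM in WT mice. Capn6, a calpain without a catalytic cysteine, had 2.67 ± 0.659 CPM in APP/PS1 A2A mice (SD, n = 4), 3.07 ± 1.02 CPM in A2A mice, 3.45 ± 2.00 CPM in APP/PS1 mice and 4.48 ± 1.38 CPM in WT mice (SD, n = 5 each), with an A2A main effect of -0.46 (edgeR unadjusted p = 0.0843, adjusted p = 0.999). Adgb, the androglobin gene with a calpain-like domain, ran between 0.479 and 5.81 CPM, and its APP/PS1 main effect was 0.20 ± 0.49 (SE).

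Capn12, Capn9 and Capns2 were near the detection limit, with at most 1.41, 0.410 and 0.786 CPM in any mouse and APP/PS1 main effects of -0.32, -0.38 and -0.30, none of which passed (edgeR adjusted p = 0.951, 0.919 and 0.941). Capn8 and Capn13, calpains of the digestive tract and of unsettled function, gave 45 and 12 reads over all 19 mice and were not tested. Capn14 was not analysed here.

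Calpain substrates were examined as messenger RNAs. Of 22 listed substrates of neurons, 22 were tested and 0 were called in any of the 7 comparisons. Unadjusted p under 0.05 was reached by 1 in A2A versus WT, by 1 in APP/PS1 A2A versus A2A and by 1 in APP/PS1 A2A versus APP/PS1, against 3.44%, 7.7% and 2.87% of all genes. The smallest p in the main effects belonged to Nefm, a neurofilament subunit, for APP/PS1 (log2 fold change 0.13, unadjusted p = 0.0747, adjusted p = 0.847) and to Itpr1, the inositol trisphosphate receptor of Purkinje and hippocampal neurons, for A2A (-0.18, unadjusted p = 0.0776, adjusted p = 0.999). Of the 22, 19 had a positive log2 fold change for APP/PS1 A2A versus A2A, 18 for the interaction and 17 for APP/PS1 A2A versus APP/PS1. The number was 13 for APP/PS1 versus WT, 9 for A2A versus WT, 16 for the APP/PS1 main effect and 11 for the A2A main effect. Over all genes, 47.7% to 51.6% were positive in the 7 comparisons. These genes share mice, and the list was not tested as a set. Cleavage of the proteins is not seen in RNA.

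The 4 listed relatives that share the penta-EF-hand fold, Pdcd6, Pef1, Sri and Gca, were tested and 0 were called. Gca, grancalcin, had the smallest p in both main effects, at -0.09 for APP/PS1 (edgeR unadjusted p = 0.258, adjusted p = 0.942) and -0.11 for A2A (unadjusted p = 0.142, adjusted p = 0.999). Pdcd6 alone had an unadjusted p under 0.05 in the interaction (log2 fold change -0.20, edgeR unadjusted p = 0.0447, adjusted p = 0.9998), where 3.8% of all genes did.

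Some members share ground with other genes of the table. Capn7 overlaps Sh3bp5 (90.1 to 161 CPM) and Cast overlaps Erap1 (10.8 to 18.5 CPM) at their ends. Capn2 overlaps the antisense gene Gm37885 (6.71 to 12.7 CPM) and also Gm37069 (3.40 to 11.9 CPM). Reads that fall on 2 genes are set aside in the union mode of counting. The libraries were strand-specific, but whether the counting used strand is not given in the sources used here. A member's count can therefore include or lose reads of such a partner. The other overlapping genes, of Capn1, Capn5, Capn10, Capn15, Capns1 and Cast, had at most 4.07 CPM in any mouse.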

How the data were processed

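Strand-specific poly-A RNA libraries of 19 hippocampi were read as single reads of 50 bases. The authors aligned them to mm10 with STAR 2.5.3a and counted reads per Ensembl gene with HTSeq 0.6.1p1 in union mode; the deposited table holds raw counts per gene and mouse. Its columns of the authors' DESeq2 1.16.1 comparisons (fold changes, p and adjusted p) and of transcript lengths were not used.

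Counts were tested with edgeR 4.0.16 (R 4.3.3): TMM scaling, filterByExpr with a minimum count of 10, 4 group means over all 19 mice, quasi-likelihood F-tests and Benjamini-Hochberg adjustment over 18529 genes. A call needed a Benjamini-Hochberg value below 0.05 together with a log2 fold change beyond 0.32 in either direction. A main effect is the mean of a transgene's effects on both backgrounds, and the interaction is their difference. The fit was also run on simulated data, whose results are not given here, so its power for effects as small as those of the members is not stated. CPM used TMM library sizes, and correlations used log2 CPM with a prior count of 2 and 100000 permutations, whose smallest possible p is 1e-05. RPKM used GENCODE M21 exon unions. The precision follows the totals of 21305902 to 53717373 counts. Alternatives were DESeq2 1.42.0, limma-voom (limma 3.58.1), DESeq2's size factors, other count filters, only the compared groups, and leaving out each mouse. Replicate numbers are in accession order and pair no mice.

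Members and gene lists were chosen with earlier results of these data known. Named genes were all members and listed family genes, of each other list the smallest p in either main effect, the 3 nearest genes of each member by r, and the neighbours of Capn11. Pdcd6 was named after its value was seen.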

Additional observations from a re-analysis of the deposited data

Results flagged for a closer look

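Capn11 differed in direction between backgrounds. Its mean log2 CPM was 2.09 higher in APP/PS1 mice than in WT mice, and every APP/PS1 mouse lay above the WT mean; APP/PS1 A2A mice minus A2A mice gave -1.76, every APP/PS1 A2A mouse lying below the A2A mean. In the same way the difference was 2.27 for A2A minus WT and -1.59 for APP/PS1 A2A minus APP/PS1. The difference between these effects was not tested, since it was among the patterns that chose the gene. The spread of Capn11 within the A2A and APP/PS1 groups, up to 10.1-fold, is given beside its levels above.

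Capn15 in APP/PS1 A2A replicate 2, at 52.0 CPM, stood apart below the other 3 mice of its group. It was 1 of 36 groups of members and genotypes examined for a mouse far from the rest, where chance gives about 1 in 20.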

How the results depend on the processing

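No paired analysis was possible because replicate numbers here only follow accession order. Under DESeq2, limma-voom, DESeq2's size factors in edgeR, no filter, at least 10 counts in every mouse, a choroid plexus term and each mouse left out, the count of the 8 members called stayed at 0 in each of the 7 comparisons (0 to 0 over the mice left out), and with the compared groups alone it was 0 in the 4 pairwise comparisons, the only ones run that way. The interaction value of Capn11 was -3.63 without A2A replicate 3 and APP/PS1 replicate 3 together, a setting chosen after the data were seen. Its APP/PS1 average also changed sign, to -0.11 without APP/PS1 replicate 3 and -0.0019 without A2A replicate 2, and was 0.42 without A2A replicate 3. Its A2A average was 0.04 without A2A replicate 3 and 0.57 without APP/PS1 replicate 3.

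Capn2, whose main effects lay near 0, changed sign: its A2A main effect was 0.0051 without a filter and 0.0141 with the choroid plexus term, and ran between -0.0166 (without APP/PS1 replicate 1) and 0.0163 (without APP/PS1 replicate 3) over the mice left out, and its APP/PS1 main effect ran between -0.0354 (without APP/PS1 replicate 3) and 0.0028 (without APP/PS1 A2A replicate 4). The A2A main effect of Cast was -0.39 to -0.24 over the mice left out, with unadjusted p of 0.00417 to 0.0451, and -0.34 to -0.32 under the other planned settings. For Capns1 it was 0.10 to 0.15 over the mice left out, with unadjusted p of 0.00704 to 0.0638. Depth limits Capn11 most, with 10 reads in the lowest mice.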
